A study of Rattus norvegicus with 13 samples.

Results

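The peroxisomal fatty acid oxidation genes described here are Abcd2, Abcd3, Acox3, Ehhadh, Hsd17b4, Scp2, Ech1, Crot and Pex11a. They were chosen by symbol in the platform's probe annotation, and they are 9 of the 14506 genes with a named probe on the array. Each had 1 probe, and all 9 were measured on all 13 arrays. Levels are log2 values per probe, so a difference of 1 is a doubling, and a level is compared only between arrays and never between genes.

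Peroxisomes shorten fatty acids that mitochondria handle poorly, such as very long, branched and dicarboxylic ones. The acyl-CoA crosses the membrane through an ABC transporter, an oxidase makes the first double bond and passes its electrons to oxygen, a bifunctional enzyme hydrates and oxidises the chain again, and a thiolase cuts it. The shortened chains leave as carnitine esters for the mitochondria. In rodents several of these genes respond to the lipid-activated receptor PPAR-alpha, and brown fat is rich in peroxisomes.

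Fat was taken from 13 female Sprague Dawley rats aged 14 weeks. In the high-fat group, 6 daughters had fathers that ate pellets with 43% as fat, and in the control group, 7 daughters had fathers on standard chow with 9% as fat. Mating with chow-fed females took place when the fathers were 15 weeks old, and the daughters of both groups were weaned onto standard chow at 3 weeks, so that the father's diet was the only labelled difference. Only daughters were studied, the fat depot is not named, and the labels are silent on common fathers or litters, so p-values measure only the spread between these animals. The labels number the daughters 619, 620, 624, 629, 660 and 663 in the high-fat group and 622, 627, 631, 656, 658, 662 and 664 in the control group. These numbers fall into the ranges 619 to 631 (4 high-fat and 3 control) and 656 to 664 (2 high-fat and 4 control), whose meaning is not given.

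The arrays carried the markers of white fat throughout, and several carried markers of other tissues as well. The mean of 10 white adipocyte markers was 12.18 ± 0.07 in the high-fat group and 12.05 ± 0.04 in the control group (SD, n = 6 and 7; exact two-sided permutation p = 0.00525, adjusted p = 0.0629 over 12 array measures). Ucp1, the uncoupling protein that defines brown fat, stood at 11.02 in high-fat daughter 629 and 10.96 in high-fat daughter 663, and at 9.76 and 9.28 in control daughters 662 and 658. Ucp1 was between 6.24 and 6.42 in the other 4 high-fat arrays and between 6.11 and 7.40 in the other 5 control arrays. The mean of 14 skeletal muscle markers was 9.24 and 11.86 in high-fat daughters 619 and 629 and 12.06 and 11.92 in control daughters 662 and 664, against 7.24 to 7.36 elsewhere. The mean of 7 hepatocyte markers was 8.13 in high-fat daughter 663, against 7.14 to 7.23 in the other high-fat arrays and 7.07 to 7.33 in the control arrays. Of the 7, 4 averaged higher and 3 lower in the high-fat daughters. Their differences ran from -0.27 to 1.05, with a median of 0.02, so the mean does not stand for every marker. The mean of the 10 measured brown fat markers ran from 7.18 to 8.49 in the high-fat group and from 7.25 to 8.20 in the control group (exact two-sided permutation p = 0.805). In whole tissue, fewer cells of a type and less RNA per cell cannot be told apart.

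All 9 genes had a higher mean in the high-fat daughters, by 0.08 to 0.33 log2 units, which is 1.06-fold to 1.26-fold. None passed limma's test after Benjamini-Hochberg adjustment over all genes, and neither did any other gene (0.00% of 14506, smallest adjusted p = 0.529). Before adjustment 4 of the 9, Acox3, Hsd17b4, Abcd3 and Scp2, had p under 0.05, all of them higher in the high-fat group, beside 7.96% of all genes at that level (5.42% higher and 2.54% lower). An unmoderated linear model also gave 0 genes after adjustment and 1075 before it, against limma's 1155. The groups overlapped in all 9 genes. The median difference over the 9 was 0.14, against 0.03 over all genes. Bright genes as a whole also stood higher in the high-fat group. Among the 2651 genes whose mean level lay between those of the lowest and the highest of the 9, the median difference was 0.09, 87.1% had a higher mean in the high-fat group and 9.09% were higher with p under 0.05.

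**Figure D1:**
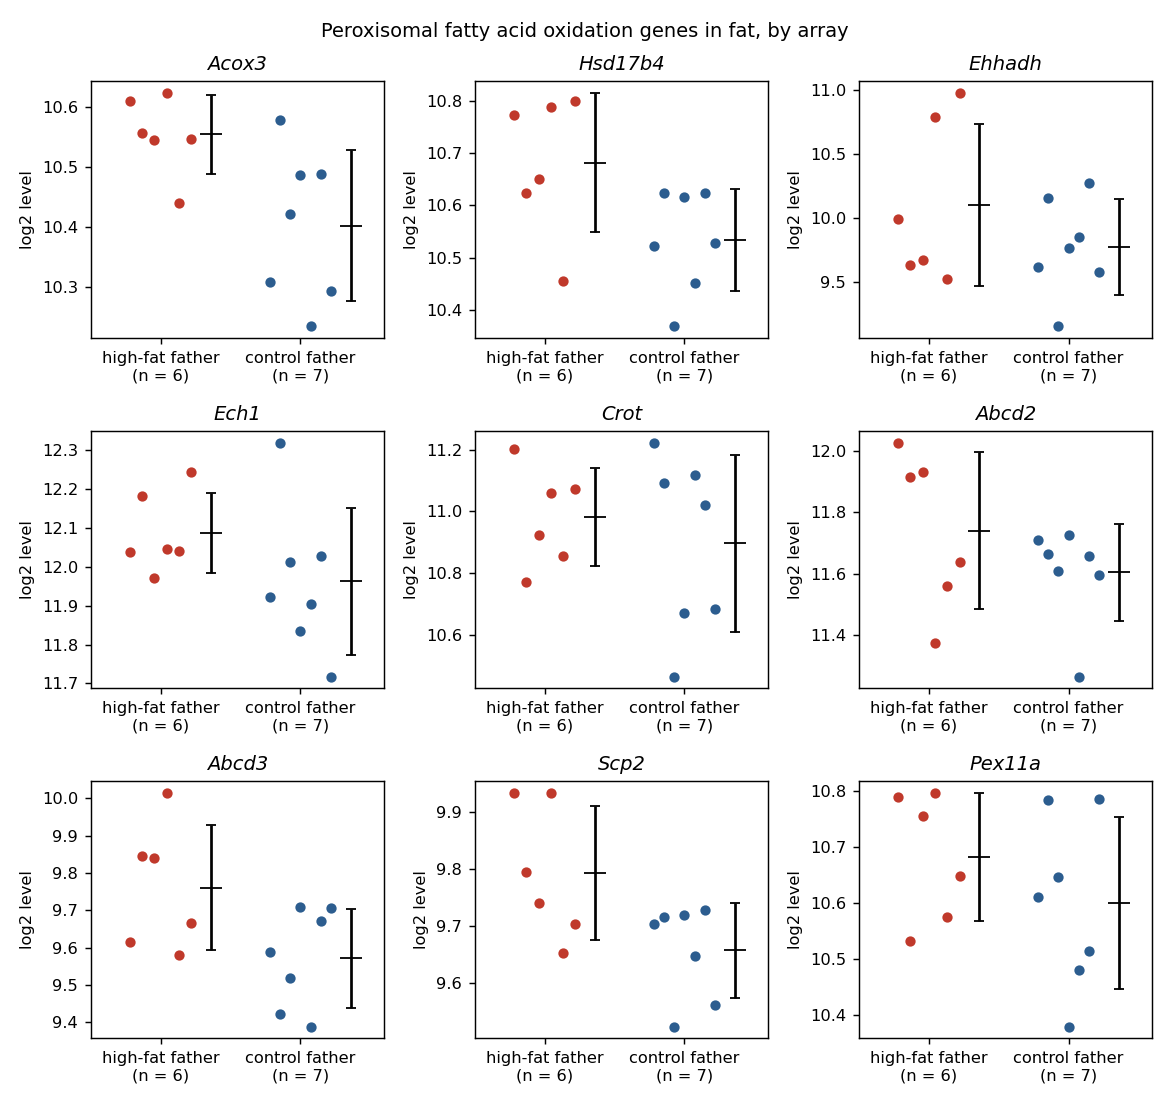
Level of each of the 9 genes (y axis, log2) on every array, with high-fat daughters (n = 6) at the left and control daughters (n = 7) at the right of each panel. Points are arrays and bars are the group mean with its SD. The groups overlap in every panel, and Ehhadh spreads over the widest range, 1.83 log2 units.

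The promoters of Ehhadh and Abcd2 are shown because these 2 genes had slopes of opposite sign on the level of brown fat markers, whose values are given after the single genes. The sequences are the 250 bases before the annotated start from RefSeq (GRCr8), read 5′ to 3′ on the strand of the gene, at chr11:92746159-92746408 on the plus strand for Ehhadh and chr7:124191203-124191452 on the minus strand for Abcd2. Capitals mark matches to AGGTCA, the repeat unit of nuclear receptor sites, or to CCAAT, on either strand.
Ehhadh: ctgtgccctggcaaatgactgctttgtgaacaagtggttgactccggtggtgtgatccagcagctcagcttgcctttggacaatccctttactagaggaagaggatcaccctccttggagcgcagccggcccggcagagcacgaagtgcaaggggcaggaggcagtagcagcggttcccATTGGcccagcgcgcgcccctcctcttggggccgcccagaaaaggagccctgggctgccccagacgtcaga
Abcd2: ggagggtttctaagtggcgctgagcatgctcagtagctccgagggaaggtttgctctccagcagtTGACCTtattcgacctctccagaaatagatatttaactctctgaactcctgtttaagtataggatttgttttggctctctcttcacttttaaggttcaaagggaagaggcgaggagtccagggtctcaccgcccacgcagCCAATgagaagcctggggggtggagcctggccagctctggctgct
Ehhadh held 1 match, to CCAAT in reverse complement, 71 to 67 bases before the start. Abcd2 held AGGTCA in reverse complement 185 to 180 bases before the start and CCAAT 45 to 41 bases before it. RefSeq promoters were matched for 8 of the 9 genes, all but Ech1. Among these, AGGTCA stood in 2 (Hsd17b4 and Abcd2), against 13.7% of 27457 promoters of this length, and CCAAT in 3 (Ehhadh, Crot and Abcd2), against 34.3%. The spaced direct repeat that PPAR dimers bind, searched on both strands as AGGNCA, any base and AGGNCA again, matched none of the 8 and 0.353% of all promoters. TGACGTCA and TATAAA matched none of the 8, against 1.7% and 13.1% of all. The motifs do not overlap each other in these windows, and a match describes letters only.

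The transporters come first in the pathway. Abcd2 imports very long and polyunsaturated acyl-CoAs and is abundant in rodent fat. Its level ran from 11.38 over a median of 11.78 to 12.03 in the high-fat group, and from 11.27 over a median of 11.66 to 11.73 in the control group. High-fat daughters 619, 620 and 624 lay above every control array, while high-fat daughters 629 and 660 lay below all control arrays but that of daughter 658. The mean difference was 0.14 ± 0.11 (limma's moderated SE; 95% interval -0.09 to 0.37; limma adjusted p = 0.570). The mean of the white adipocyte markers was above the highest control, 12.11, in every high-fat array but that of daughter 629, 12.06. A model holding both diet and that mean therefore separates them poorly. With that mean as a covariate, a setting chosen after the data were seen, the difference in Abcd2 was -0.24. With the SD of each array as a covariate it was 0.00. Without control daughter 658 it was 0.08, and without high-fat daughter 619 it was also 0.08, while without high-fat daughter 629 it was 0.21.

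Abcd3, the major peroxisomal membrane transporter for branched, dicarboxylic and long acyl-CoAs, ran from 9.58 over a median of 9.75 to 10.01 in the high-fat group. In the control group it ran from 9.39 over a median of 9.59 to 9.71. The 3 high-fat arrays of daughters 629, 620 and 624 stood above all controls, and the other 3 lay within the control range, though all 6 were above the control mean. Its difference of 0.19 ± 0.08 (95% interval 0.01 to 0.36; unadjusted p = 0.0366; limma adjusted p = 0.529) was 0.32 in the range 619 to 631 and 0.01 in the range 656 to 664.

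An oxidase opens the cycle. Acox3 in rodents is the oxidase of branched chains such as pristanoyl-CoA. It ran from 10.44 over a median of 10.55 to 10.62 in the high-fat group, against 10.24 over a median of 10.42 to 10.58 in the control group. The high-fat arrays lay close together, with an SD of 0.07 against 0.13 in controls, and all 6 were above the control mean, but only those of daughters 619 and 629 exceeded the highest control, daughter 627. Acox3 had the smallest p of the 9 (difference 0.15 ± 0.06; 95% interval 0.02 to 0.28; unadjusted p = 0.0274; limma adjusted p = 0.529). Its difference was 0.15 in the range 619 to 631 and 0.12 in the range 656 to 664.

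The hydration and second oxidation steps are carried by a pair of bifunctional enzymes. Hsd17b4, the D-specific one, handles most very long and branched chains. It ran from 10.46 over a median of 10.71 to 10.80 in the high-fat group and from 10.37 over a median of 10.53 to 10.62 in the control group. High-fat daughter 660 was below the control mean, and the other 5 high-fat arrays were at or above the highest control. The difference was 0.15 ± 0.07 (95% interval 0.01 to 0.29; unadjusted p = 0.0433; limma adjusted p = 0.529).

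Ehhadh, the L-specific enzyme, acts on dicarboxylic acids and is a known PPAR-alpha target in rodent liver. Its level ran from 9.52 over a median of 9.83 to 10.98 in the high-fat group, against 9.15 over a median of 9.76 to 10.27 in the control group. High-fat daughters 663 and 629, at 10.98 and 10.79, lay above every control array, and the other 4 high-fat arrays lay within the control range. Its pooled within-group SD of 0.51 was at percentile 97.9 of all genes. The difference of 0.33 ± 0.25 (95% interval -0.21 to 0.87; limma adjusted p = 0.562) was the largest of the 9 in size but not in relation to its error. It was 0.02 without the 3 arrays highest in brown fat markers (high-fat 629 and 663, control 662). Leaving out only high-fat daughter 663 gave 0.15, and leaving out only high-fat daughter 629 gave 0.19. Daughter 663 was also the array with the highest hepatocyte marker mean, though these markers did not all go the same way between the groups. Their part in the Ehhadh value was not tested. With the white adipocyte markers as a covariate, chosen after the data were seen, the Ehhadh difference was 0.75 (limma adjusted p = 0.999). That covariate separates poorly from diet.

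The thiolase step is represented by Scp2, whose gene also encodes the smaller sterol carrier protein, and a single probe cannot tell these products apart. It ran from 9.65 over a median of 9.77 to 9.93 in the high-fat group and from 9.52 over a median of 9.70 to 9.73 in the control group. The high-fat arrays of daughters 619, 629, 620 and 624 stood above all controls. Its difference of 0.14 ± 0.06 (95% interval 0.01 to 0.27; unadjusted p = 0.0425; limma adjusted p = 0.529) was 0.20 in the range 619 to 631 and 0.01 in the range 656 to 664.

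Ech1, an isomerase that prepares chains with conjugated double bonds and is found in mitochondria too, ran from 11.97 over a median of 12.04 to 12.24 in the high-fat group. The control range was wider, from 11.72 over a median of 11.92 to 12.32, and enclosed every high-fat array. All 6 high-fat arrays were above the control mean. The difference was 0.12 ± 0.08 (95% interval -0.06 to 0.31; limma adjusted p = 0.537). It was -0.03 in the range 619 to 631, where control daughter 627 held the highest level of all, and 0.27 in the range 656 to 664.

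Crot transfers the shortened chains to carnitine for export. Its level ran from 10.77 over a median of 10.99 to 11.20 in the high-fat group, against 10.46 over a median of 11.02 to 11.22 in the control group. No high-fat array left the control range, and the control median was the higher one. The difference of means was 0.09 ± 0.12 (95% interval -0.18 to 0.35; limma adjusted p = 0.735). It was 0.01 without control daughter 631, the lowest array, 0.04 without high-fat daughter 619, 0.05 without control daughter 656 or 664, 0.14 without control daughter 622, and -0.01 without the 4 arrays highest in muscle markers.

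Pex11a, a membrane protein that promotes peroxisome elongation and division, ran from 10.53 over a median of 10.70 to 10.80 in the high-fat group. In the control group it ran from 10.38 over a median of 10.61 to 10.79. Only high-fat daughters 629 and 619 passed the highest control, and by less than the SD of either group. The difference was 0.08 ± 0.08 (95% interval -0.08 to 0.25; limma adjusted p = 0.610), and 0.05 without control daughter 656.

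The extremes were shared unevenly between the arrays. The highest array of each gene was a high-fat one in 7 of the 9 genes, 3 of them in daughter 629 (Acox3, Abcd3 and Pex11a). The lowest array was a control one in all 9. Control daughter 631 was the lowest in 4 genes (Hsd17b4, Ehhadh, Crot and Scp2) and control daughter 658 in 3 (Acox3, Abcd2 and Abcd3). Control daughters 658 and 631 also had the arrays of smallest SD, 1.7845 and 1.8573. High-fat daughter 660, next at 1.8633, was the lowest in 0 of the 9. Of the genes in the level range of the 9, 87.1% averaged higher in the high-fat group. Whether such counts of extremes are particular to the 9 was not tested. The count of the 9 with unadjusted p under 0.05 depended on single arrays. Dropping high-fat daughter 629 left 0 genes. Dropping high-fat daughter 619 or control daughter 631, 658 or 664 left 1, and dropping high-fat daughter 620 or 624 or control daughter 622 left 2. The median difference over the 9 stayed between 0.12 and 0.17 when any single array was left out.

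Within the range 619 to 631, 8 of the 9 genes had a higher mean in the high-fat daughters. The median difference over the 9 was 0.15, against 0.08 among the genes in their level range and 0.02 over all genes. Of the 9, 3 had unadjusted p under 0.05, beside 6.06% of all genes higher at that level. Within the range 656 to 664 the high-fat mean was above the control mean for all 9. The median difference was 0.07 there, close to the 0.06 of the genes in their level range, against 0.02 over all genes. None of the 9 had p under 0.05, beside 0.524% of all genes higher at that level. The 2 high-fat daughters of the second range leave that comparison imprecise. Tissue makeup also differed between the groups within each range. The muscle markers had a median difference of 1.76 in the range 619 to 631 and -2.40 in the range 656 to 664. For the brown fat markers it was 0.23 and -0.07. Diet and muscle content are thus confounded in part within each range, and the part of muscle in these differences was not tested. The test of the difference between ranges, limma's interaction term, passed for 0 genes after adjustment (0.00%), and before it for 0 of the 9 and 3.47% of all genes. The interaction estimates of the 9 lay between -0.31 for Abcd3 and 0.30 for Ech1. With the number range as a covariate, no member had p under 0.05.

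**Figure D2:**
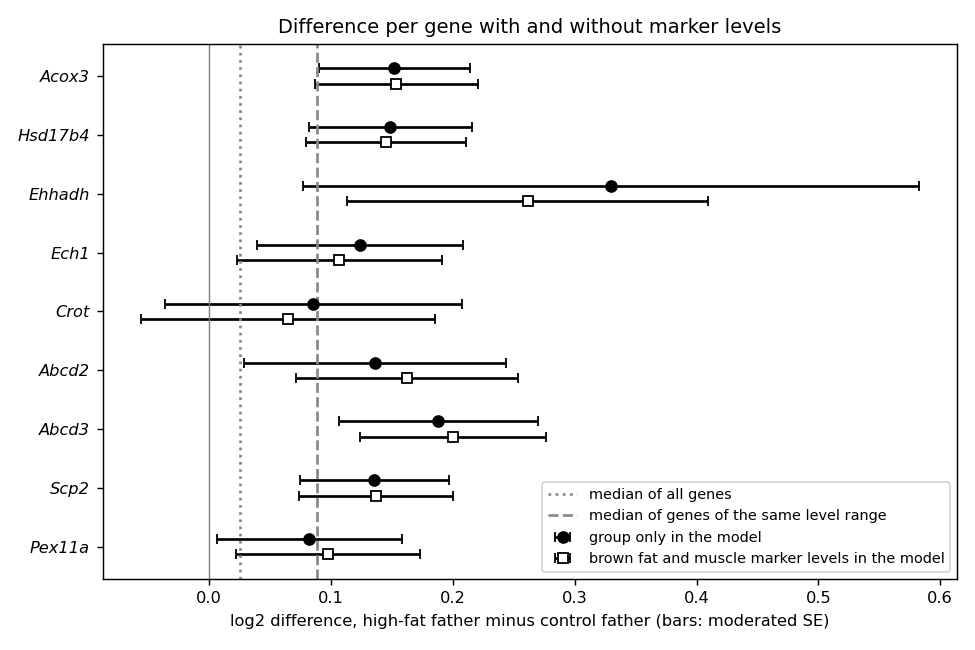
Difference of each gene between high-fat and control daughters (x axis, log2, high-fat minus control) with its moderated SE, from the model with the groups alone and from the model that also holds the brown fat and muscle marker means. The dotted line is the median of all genes (0.03) and the dashed line the median of genes of similar level (0.09), and all 9 estimates lie above 0 in either model.

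Some arrays of both groups were rich in brown fat markers. Their mean was 8.49 and 8.19 in high-fat daughters 629 and 663, and 8.20 and 7.91 in control daughters 662 and 658. Each gene was therefore also fitted with the brown fat and muscle marker means in the model. The 9 differences were all positive there too, from 0.06 for Crot to 0.26 ± 0.15 for Ehhadh, and 3 had unadjusted p under 0.05, beside 9.35% of all genes higher. The median difference in that model was 0.145 over the 9, against 0.10 among the genes in their level range and 0.03 over all genes. The slope on the brown fat markers gives the change in a gene per log2 unit of the marker mean at equal diet and muscle level. It passed limma's adjusted test for 17 genes of the array (0.117%), none of them among the 9. These 17 include 4 of the brown fat markers that make up the mean. Ehhadh had the steepest slope of the 9, 0.97 ± 0.20 (unadjusted p = 0.000328; limma adjusted p = 0.122). Abcd2 had a slope in the opposite direction, -0.32 ± 0.12 (unadjusted p = 0.0203; limma adjusted p = 0.328). These 2 were the only ones with unadjusted p under 0.05, beside 12.4% of all genes. Of this pair, whose promoters are printed with the gene descriptions, Abcd2 alone held an AGGTCA match in the 250 bases examined. Hsd17b4, the other gene of the 9 with that match, had a positive slope, 0.10 ± 0.09. A link between match and slope was not tested. The other slopes ran from -0.09 for Pex11a to 0.24 ± 0.16 for Crot, whose limma adjusted p was 0.537. Slopes on the muscle markers lay between -0.04 and 0.04 for the 9, and 0 of them passed before or after adjustment, beside 6.98% and 0.986% of all genes. The genes that passed after adjustment include all 14 muscle markers that make up that mean.

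The Ehhadh slope crossed the adjusted threshold in 3 of 19 alternatives and not in the other 16, where limma adjusted p reached 0.393. With 1 array left out it was lowest without high-fat daughter 663, at 0.74. Where it crossed, it was 1.06 with limma adjusted p = 0.0403 after quantile normalization and 1.01 with adjusted p = 0.0285 without control daughter 627. It was 1.10 with adjusted p = 0.0438 with array SD in the model, a setting chosen after the data were seen. Control daughter 627 had a high Ehhadh level, 10.15, at a brown marker mean of 7.27 and a Ucp1 level of 6.45, so Ehhadh was not high on Ucp1-rich arrays alone.

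**Figure D3:**
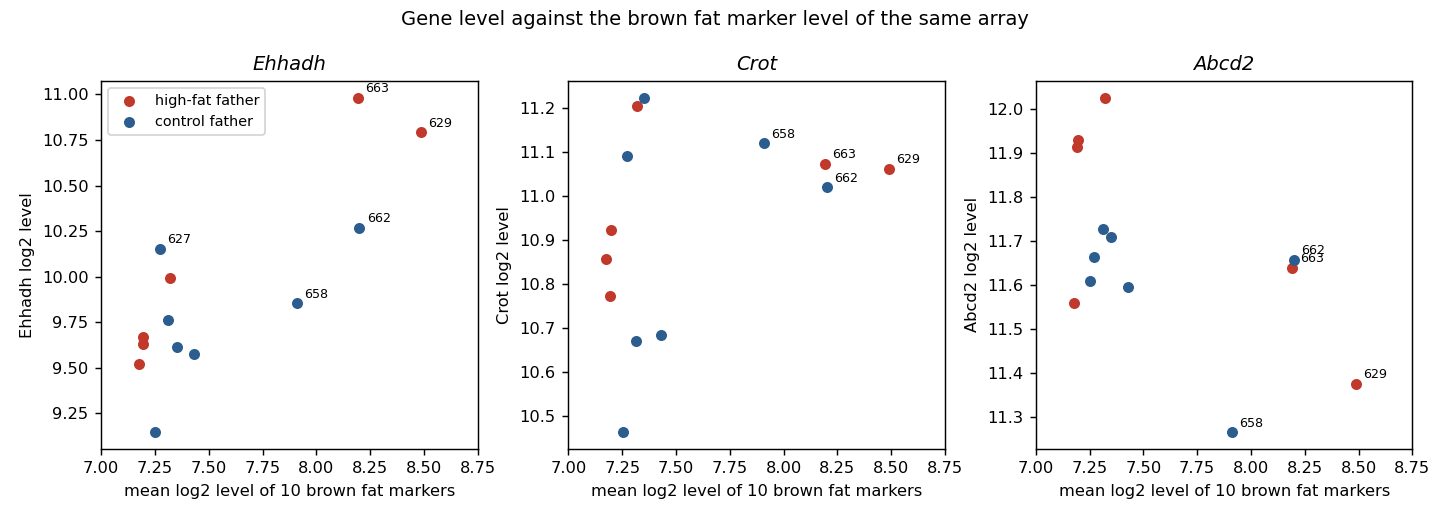
Levels of Ehhadh, Crot and Abcd2 (y axes, log2) against the mean log2 level of 10 brown fat markers on the same array (x axes), for 6 high-fat and 7 control daughters, with the numbers of the marker-rich arrays and, for Ehhadh, of control daughter 627. Ehhadh is highest in high-fat daughters 663 and 629, Abcd2 is lowest in control daughter 658 and high-fat daughter 629, and Crot shows no clear order.

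The genes most like Ehhadh over the 13 arrays, by Pearson correlation among all genes, were Crat (r = 0.90, Spearman rho = 0.80), Phyh (r = 0.89, rho = 0.90) and Idh3a (r = 0.89, rho = 0.87). Crat makes short-chain carnitine esters in peroxisomes and mitochondria, Phyh starts the alpha-oxidation of phytanic acid in peroxisomes, and Idh3a is a subunit of a citric acid cycle enzyme. Without high-fat daughters 663 and 629, the arrays farthest from the Ehhadh median, r was 0.85, 0.84 and 0.78 for these genes. Abcd2 was most like Fgf7, a fibroblast growth factor (r = 0.97, rho = 0.89), Armcx1 (r = 0.97, rho = 0.92) and Nr3c1, the glucocorticoid receptor (r = 0.96, rho = 0.93). Without control daughter 658 and high-fat daughter 619, r was 0.95, 0.96 and 0.95. Pex11a was most like Bccip (r = 0.82, rho = 0.90), Bud23 (r = 0.77, rho = 0.78) and Ilvbl (r = 0.77, rho = 0.84), and without control daughters 656 and 658 r was 0.81, 0.64 and 0.72. These genes were picked for their r, and all of the points share the tissue makeup of the arrays, so the values are a description.

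The remaining peroxisomal genes are set beside the genes in the level range of the 9, from 9.66 to 12.02. Of those, 87.1% averaged higher in the high-fat group, against 58% of all genes, and their median difference was 0.09. The share higher with unadjusted p under 0.05 was 9.09% there and 5.42% over all genes. Many of the remaining genes lay outside that range, such as Hacl1, Slc27a2, Pex7 and Cat, so this background is not matched to them in level. Of 21 other genes of peroxisomal oxidation, 14 were measured, 13 of them higher on average in the high-fat daughters, the median difference being 0.11, and 3 had unadjusted p under 0.05. The other 7 were not analysed here. Hacl1, the lyase of alpha-oxidation, averaged 8.17 in the high-fat group and 7.91 in the control group (difference 0.26 ± 0.07). Slc25a17, a peroxisomal carrier of cofactors, differed by 0.22 ± 0.10, Acbd5, an acyl-CoA binding membrane protein, by 0.14 ± 0.07, and Nudt19, which degrades CoA, by 0.12 ± 0.05. Catalase (Cat), which removes the hydrogen peroxide made by the oxidases, differed by 0.06 ± 0.06 (limma adjusted p = 0.642), by 0.04 without control daughter 658 and by 0.10 without high-fat daughter 629. No gene of this list passed limma's adjusted test, with a smallest adjusted p of 0.529.

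Of 17 biogenesis genes, 14 were measured and the other 3 were not analysed here, and 13 averaged higher in the high-fat daughters. Their median difference was 0.11, against 0.09 among the genes in the level range of the 9, though many of the 14 lay below that range. Before adjustment 6 of the 14 had p under 0.05, all higher, beside 5.42% of all genes and 9.09% of those in that range, and 0 passed after it. Pex19, the chaperone that delivers membrane proteins, differed by 0.24 ± 0.09, Pex16, its partner at the membrane, by 0.21 ± 0.07, Pex10, part of the ubiquitin ligase that recycles the import receptor, by 0.19 ± 0.07, and Pxmp2, a membrane channel protein, by 0.24 ± 0.09. The median of this list was 0.18 in the range 619 to 631 and 0.02 in the range 656 to 664.

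The 5 measured genes of ether lipid synthesis, which begins in peroxisomes, all averaged higher in the high-fat daughters (median difference 0.09), and 0 had unadjusted p under 0.05. Gnpat and Agps, the first enzymes of that route, differed by 0.17 ± 0.09 and 0.09 ± 0.05, Peds1, the plasmalogen desaturase, by 0.13 ± 0.12, and Dhrs7b, a reductase of the same route, by 0.08 ± 0.08. Peds1 differed by 0.03 without control daughter 658, and Dhrs7b by 0.05 without that daughter and 0.03 without high-fat daughter 619. Of the 8 PPAR regulators, 7 averaged higher (median difference 0.10), and again 0 had unadjusted p under 0.05. Ppara differed by 0.39 ± 0.26 (limma adjusted p = 0.531), Rxrg, a partner receptor, by 0.19 ± 0.12, Ppard by 0.13 ± 0.07, and Pparg, the adipocyte receptor, by 0.09 ± 0.07. Ppara differed by 0.19 without high-fat daughter 629, and Pparg by 0.05 without high-fat daughter 619.

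Mitochondrial beta-oxidation, the pathway that receives the shortened chains, showed the largest median of these lists. All 18 genes averaged higher in the high-fat daughters (median difference 0.22), and 6 had unadjusted p under 0.05, beside 5.42% of all genes higher at that level, though 0 passed after adjustment. Of the genes in the level range of the 9, 87.1% averaged higher, against 58% of all genes. Hadh, the short-chain hydroxyacyl-CoA dehydrogenase, differed by 0.36 ± 0.10, Acads, a short-chain acyl-CoA dehydrogenase, by 0.22 ± 0.06, Decr1, a dienoyl-CoA reductase, by 0.22 ± 0.08, and Echs1, an enoyl-CoA hydratase, by 0.20 ± 0.06. Muscle-rich arrays were all high-fat ones in the range 619 to 631 and all control ones in the range 656 to 664. The median of the 18 genes was 0.34 in the first of these ranges and 0.03 in the second. For the 9 peroxisomal genes it was 0.15 and 0.07, and for the genes in their level range 0.08 and 0.06.

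**Figure D4:**
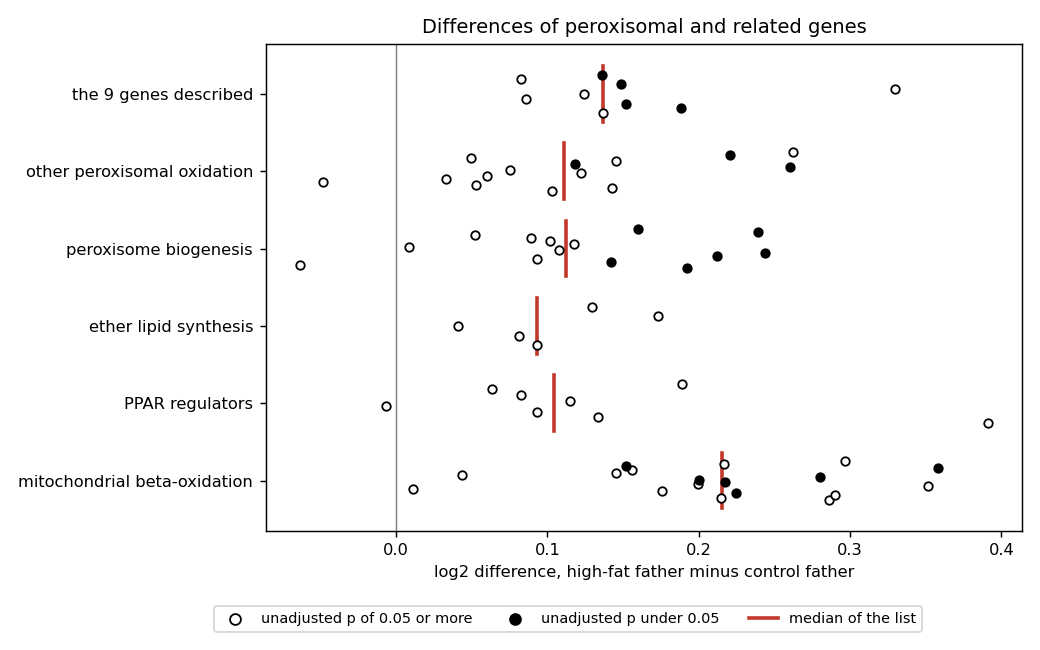
Difference between high-fat and control daughters (x axis, log2, high-fat minus control) for every measured gene of the 9 described and of the 5 related lists, with filled points for unadjusted p under 0.05 and a bar at each list's median. Most points lie above 0, and the medians run from 0.09 for ether lipid synthesis to 0.22 for mitochondrial beta-oxidation.

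Some genes around the pathway did pass the adjusted test for the slope on brown fat markers. Slc27a2, which activates very long chains at the peroxisome, had a slope of 1.58 ± 0.09 (limma adjusted p = 2.5e-06), and its diet difference was 0.26 ± 0.35. Its level ran from 5.94 to 7.88, with medians of 6.11 in the high-fat and 6.08 in the control group. Both medians lay below the array medians, which ran from 7.656 to 7.725, and its detection was not assessed. Leaving out high-fat daughter 629 gave a difference of 0.01, leaving out 663 gave 0.06, and leaving out control daughter 662 gave 0.40. Ppara had a slope of 0.91 ± 0.12 (limma adjusted p = 0.0056). Cpt1b, which loads long chains onto carnitine for mitochondria, had a slope of 1.81 ± 0.20 (limma adjusted p = 0.0015), and the mitochondrial dehydrogenases Acadl and Acadm had slopes of 0.69 ± 0.10 and 0.68 ± 0.11 (limma adjusted p = 0.0151 and 0.0410). Cpt1b, Acadl and Acadm were named after their values were seen, and Slc27a2 was named because its slope passed. Crat, with 0.39 ± 0.09 (limma adjusted p = 0.176), and Phyh, with 0.30 and 0.379 as its limma adjusted p, did not pass, though Crat did in 1 of 19 alternatives, with array SD in the model (limma adjusted p = 0.0242).

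**Figure D5:**
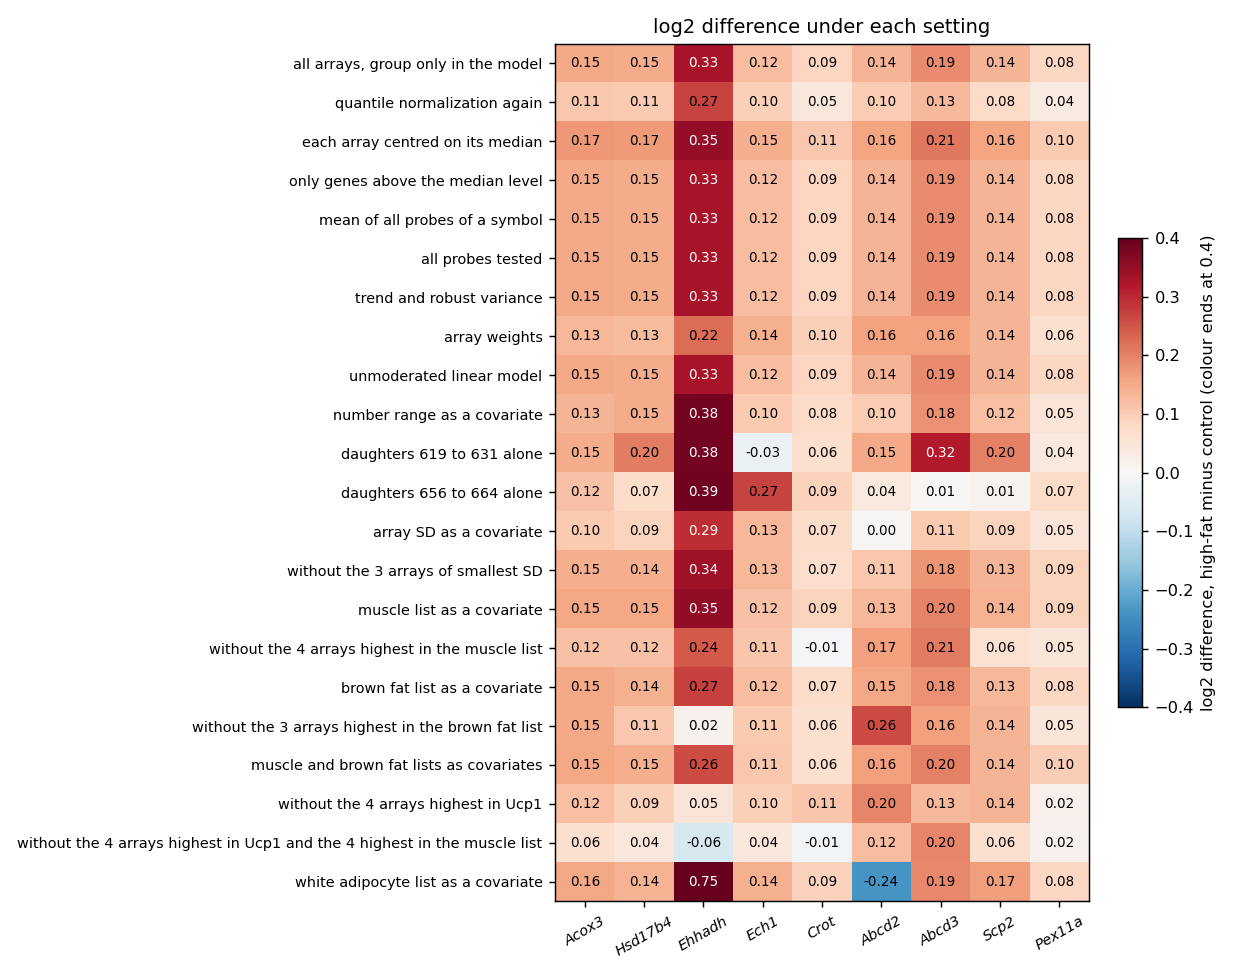
Log2 difference (high-fat minus control) of each gene (columns) under each processing setting (rows), with the value printed in each cell and colours that end at 0.4. Ehhadh runs from -0.06 to 0.75 and Abcd2 from -0.24 to 0.26, while Acox3, Hsd17b4, Abcd3, Scp2 and Pex11a are above 0 under every setting shown.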

How the data were processed

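Fat RNA of 13 daughters was labelled with biotin and hybridised to Affymetrix arrays, 1 array per animal. The deposited values are log2 intensities of 29214 probes made by the authors with RMA and Partek, per the submitters' processing notes; the sources used here give no versions or filters. RMA pulls the arrays toward a common distribution, but the deposited arrays still differed in SD, from 1.7845 in control daughter 658 to 1.9605 in high-fat daughter 619. Quantile normalization applied again took the median difference over the 9 genes from 0.14 to 0.10. The source of the remaining spread was not tested. The number of arrays limits the precision, and detection per probe was not assessed.

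Of 15310 probes with 1 symbol, the brightest per symbol was kept, giving 14506 genes. The diet difference, high-fat minus control, was fitted in R 4.3.3 by limma 3.58.1 with default moderation. Two-sided p-values were adjusted across all genes by Benjamini-Hochberg, and 0.05 was the threshold; the steps were tested on simulated data. Errors are limma's moderated SE. A second model added the means of brown fat and muscle marker lists, and another the interaction with number range. Array measures were compared by exact permutation over 1716 arrangements. All 9 genes were described in full, with up to 4 genes of smallest p per related list, Cat, Ppara, peroxisomal genes whose brown fat slope passed, and the 3 genes most correlated with Ehhadh, Pex11a and Abcd2. The members and lists were chosen with earlier results of these data known. Alternatives covered normalization, filters, probe choice, variance model, covariates, and leaving out arrays.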

Additional observations from a re-analysis of the deposited data

Results flagged for a closer look

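A single array stood far from the others of its group in 3 of the 62 gene and group combinations examined, and chance alone gives about 3.1 such cases. Abcd2 was low in control daughter 658, at 11.27 with the next control at 11.60 and the far end at 11.73, a gap of 0.715 of the group's range. Peds1 was low in the same control daughter, at 9.54 with the next control at 10.05 and the far end at 10.43, a gap of 0.574 of the range. Rxrg was high in control daughter 662, at 9.80 with the next control at 9.42 and the far end at 9.16, a gap of 0.601 of the range. Control daughters 658 and 662 were also the controls with the highest Ucp1 levels, 9.28 and 9.76, and the part of that in these values was not tested.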

How the results depend on the processing

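No gene passed limma's adjusted test for the diet difference under any of 35 alternatives. No paired analysis was possible because the groups share no replicate numbers. Of the 9 genes, the 4 with unadjusted p under 0.05 became 0 after quantile normalization, with the number range or array SD as a covariate, and in the range 656 to 664; they became 1 without the 4 arrays highest in muscle markers or the 3 highest in brown fat markers. Under settings chosen after the data were seen they became 0 without the 4 arrays highest in Ucp1, without these and the muscle-rich arrays (3 high-fat and 4 control daughters left), and with the white adipocyte markers as a covariate. Leaving out 1 array gave 0 to 4. The causes were not tested. The median difference over the 9 ran from 0.04, without the Ucp1-rich and muscle-rich arrays, to 0.16, with each array centred on its median, and from 0.12 to 0.17 with 1 array left out.

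The 1155 genes of the array at that level became 661 among genes above the median level, 2092 over all probes, 2179 with array weights, 611 and 407 with number range and array SD as covariates, 1990 and 135 in the ranges 619 to 631 and 656 to 664, 550 without the 4 muscle-rich arrays, 2010 with both marker lists, 627 without the Ucp1-rich and muscle-rich arrays, 570 with the adipocyte markers, and 508 to 2508 with 1 array left out. The 17 genes called for the brown fat slope became 29 after quantile normalization, 34 with array SD, and 9 to 25 with 1 array left out.

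Signs turned as follows. In the range 619 to 631 the differences were -0.0252 for Ech1, -0.0216 for Peds1 and -0.0025 for Cat, and in the range 656 to 664 -0.027 for Dhrs7b and -0.0422 for Rxrg. With array SD they were -0.0084 for Peds1 and -0.0125 for Dhrs7b. Crot was -0.0077 without the muscle-rich arrays, and Slc27a2 was -0.18 without the 3 arrays richest in brown markers. Without the Ucp1-rich arrays Peds1 was -0.0937 and Slc27a2 -0.0229, and without these and the muscle-rich arrays Ehhadh was -0.0629, Crot -0.012, Peds1 -0.0751 and Slc27a2 -0.0368. With the adipocyte markers Abcd2 was -0.24, Slc25a17 -0.10, Acbd5 -0.0156, Pex19 -0.043, Dhrs7b -0.10, Pparg -0.0475 and Cat -0.14. That covariate separates poorly from diet, so these values are imprecise. The flat brown fat slopes crossed 0. Abcd3 was 0.055 after quantile normalization, 0.0082 with number range, 0.0613 with array SD and -0.0796 to 0.0465 with 1 array left out. Acox3 was -0.0021 with Ucp1 and Ckm alone and -0.0795 to 0.0762 with 1 array left out, and Scp2 was -0.045 to 0.118. The interaction of Acox3 was 0.0041 with the marker lists. Among called slopes, Acadm lost its call in 11 of 19 alternatives, Acadl in 3 and Ppara in 1 (without control daughter 664, adjusted p = 0.0661), while Slc27a2 and Cpt1b kept theirs in all 19.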

Other observations

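The arrays high in Ucp1 did not move the 9 genes together. In high-fat daughter 629, with Ucp1 at 11.02, Acox3, Abcd3 and Pex11a were at their highest of the 13 arrays (10.62, 10.01 and 10.80), Ehhadh was at 10.79, and Abcd2 at 11.38 was the second lowest. In high-fat daughter 663, with Ucp1 at 10.96, Ehhadh and Hsd17b4 were at their highest (10.98 and 10.80), while Abcd3, at 9.67, and Pex11a, at 10.65, lay inside the control range. In control daughter 662, with Ucp1 at 9.76, Ehhadh was the highest of the controls (10.27). In control daughter 658, with Ucp1 at 9.28, Ehhadh was at 9.85, while Abcd2, Abcd3 and Acox3 were at their lowest of all (11.27, 9.39 and 10.24). No test was made of these single arrays.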
